A study of Bos taurus with 2 samples.

Results

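DNA methylation was examined at 10 genes of the germ line in 2 samples of cattle bone. The genes DAZL, DDX4, SYCP3, MAEL, TDRD1, BOLL, STK31, HORMAD1, BRDT and SYCP1 were taken from a list of names. They were 10 of the 21162 protein-coding genes on chromosomes 1 to 29 and X, and a start could be placed for 9 of them, against 13036 of all genes. The samples, titled Bone_1 and Bone_2, were labelled as bone of female Holstein cattle, and the labels give no treatment, age or bone. Both belong to a single group, and the sources used here do not say whether they came from 1 animal or 2. Whole-genome bisulfite sequencing (WGBS), in which unmethylated cytosines are converted, gave methylated and unmethylated calls at each CpG. Each level is an average over all cells of a sample, RNA was not measured in these samples, and so silencing as such was not examined.

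Many genes that act only in germ cells have a promoter rich in CpG sites. Promoters of this kind are free of methylation in most genes, whereas at a number of germ line genes they are methylated in the embryo when somatic tissues are set apart, and they are unmethylated in germ cells. Methylation of such a promoter is known to go with repression, while methylation inside a gene body does not.

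The question asked here was whether the lower genome-wide level of Bone_2 was also present at these promoters. Bone_1 had 462047525 calls and Bone_2 had 406703424 calls on chromosomes 1 to 29 and X, a mean of 17.0 and 15.0 calls per CpG site. The level there, as methylated calls over all calls with the strands merged, was 72.3% in Bone_1 and 58.7% in Bone_2, with a mean of 65.5% ± 9.61 (SD, n = 2). No test between groups is possible with 1 group of 2 samples. The tests below compare the calls of these 2 libraries, and all intervals are 95% intervals for counting error only, since CpG sites close together share reads and PCR copies were not marked by molecular identifiers.

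The gene table at hand was of the ARS-UCD2.0 assembly and gave gene ends without strand, whereas the submitters' processing notes name ARS-UCD1.2. The start was therefore taken as the end of the gene whose promoter window, 1000 bp upstream to 500 bp downstream, held at least 2 times as many CpG sites as the window at the other end and at least 20 of them. Over all genes, the density of CpG sites was highest at the annotated ends, with a mean of 4.39 sites in the 100 bp just outside a gene against 1.44 at 2 kb from it. Positions are given below as the first and last CpG of each promoter in the coordinates of the deposited calls. Each window covers the start region and the first part of the gene, and exons were not distinguished.

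In Bone_1, 8 of the 9 placed promoters were methylated at 76.3% or more, and the median of the 9 was 90.9%. In Bone_2 the same 8 promoters were methylated at 65.7% or more, and the median of the 9 was 73.0%. The promoter of BOLL was the exception, at 44.5% and 29.9%. Among all 12973 promoters tested the median of the mean level was 7.20%, and 1356 of them reached a mean of 50%. Methylated promoters were rarer the more CpG sites they held, and of these genes DAZL and BOLL held more sites than the median promoter, which had 88. DAZL, with 107 sites, was 1 of 40 promoters with a mean of at least 50% among the 5000 that held 100 or more sites. DDX4, SYCP3, MAEL, TDRD1, HORMAD1 and SYCP1 held 47 to 56 sites, and of the 1531 promoters with 40 to 59 sites 22.3% reached that level. BRDT had 39 sites, a density at which methylation was common (57.5% of 553 promoters with 30 to 39 sites).

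**Figure D1:**
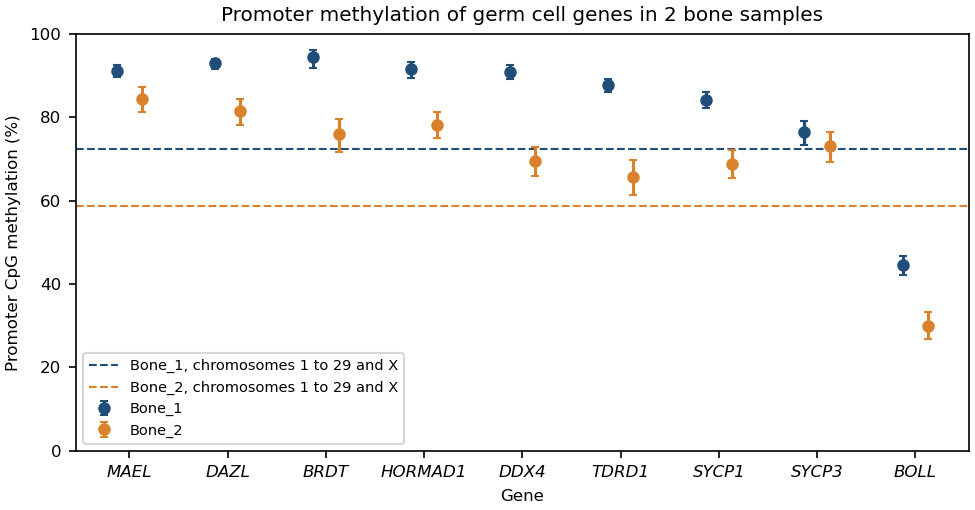
Promoter CpG methylation in percent (vertical axis) of the 9 germ cell genes with a placed start, in Bone_1 and Bone_2, with 95% Wilson intervals for counting error. Bone_2 is the lower sample at every gene by summed calls, and the intervals overlap only at SYCP3. BOLL lies below the others at 44.5% and 29.9%. At BOLL the difference is 0.63 points (-2.01 to 3.27) when each CpG site has the same weight in both samples. The share of all promoters with intervals apart is not given here. By Fisher's exact test 19.9% of all promoters were called lower in Bone_2, and 91.1% of those with a mean of at least 50%.

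**Figure D2:**
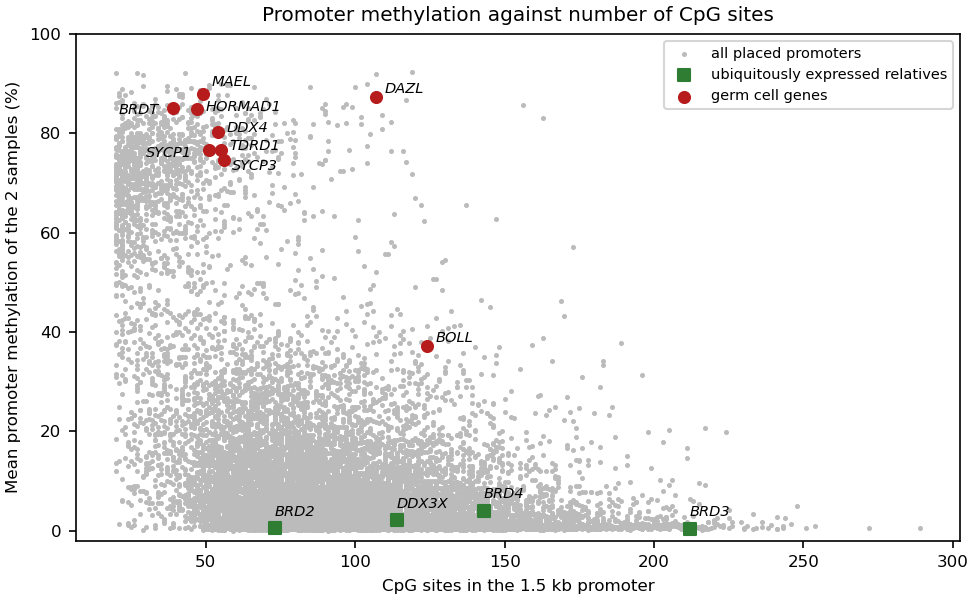
Mean promoter methylation of the 2 samples in percent (vertical axis) against the number of CpG sites in the 1.5 kb promoter (horizontal axis), with all placed promoters in the background and the 9 germ cell genes named. DAZL, with 107 sites and 87.2%, lies in a range of CpG sites where few other promoters were methylated.

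The lower level of Bone_2 was found at 8 of the 9 promoters by summed calls (two-sided Fisher's exact test, adjusted p under 0.05 over all promoters tested), and none was higher. Of all promoters tested, 19.9% were called lower in Bone_2 and 36.6% higher. Of the 1356 with a mean of at least 50% 91.1% were called lower, so the count among the germ cell genes lies near that of methylated promoters in general. The median difference of the 9 was -14.5 percentage points, against -17.7 over the 1356 and -13.6 over the genome. This median is the value of BOLL, and with the same weight per CpG site in both samples the median was -11.1 points, against -16.1 over the 1356. BOLL, with a mean of 37.2%, is not among the 1356, so the count and the medians are not of like sets. With sites at least 300 bp apart, which limits the number of calls taken from the same read, 2 of the 9 were still called lower, DAZL (adjusted p = 0.00272, exact test) and TDRD1 (adjusted p = 0.00624, exact test), and 5.41% of all promoters. The difference at DAZL was then -34.9 points (86.2% of 65 calls and 51.2% of 41 calls), far from that by all its calls given below. A single site at -964 bp from the start held 19 of these 41 calls in Bone_2 and 4 of the 65 in Bone_1. At that site Bone_2 was higher, 15.8% against 0%, so the difference at DAZL depended on the depth at 1 site. At TDRD1 the difference was -25.6 points. At the 5 genes DDX4, BRDT, HORMAD1, SYCP1 and MAEL the call was lost in these fewer calls with differences of -18.6, -18.1, -15.4, -14.2 and -10.03 points, and at BOLL with -9.87 points. At single sites, 448 of the 582 CpG sites in these promoters had 5 calls or more in both samples, of which 296 were lower and 94 higher in Bone_2.

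DAZL and BOLL belong to the DAZ family of RNA-binding proteins, which act on translation in germ cells. DAZL, needed for germ cells to form and survive, had its promoter on chromosome 1 between positions 153662572 and 153664033. Its level was 92.9% (91.7 to 94.0) of 1928 calls in Bone_1 and 81.5% (78.0 to 84.5) of 561 calls in Bone_2, a mean of 87.2% ± 8.08 (SD, n = 2). The difference of -11.4 points (-15.0 to -8.19) was called (adjusted p = 5.84e-13, Fisher's exact test), with the calls taken as independent. Bone_2 had few calls per site here, 5.24 against 18.0, and the samples read different sites to different depth. When each CpG site was given the same weight in both samples, the difference was -4.75 points (-7.78 to -1.71), and within 500 bp to either side of the start it was -4.39 points.

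BOLL, which acts during meiosis of male germ cells, had its promoter on chromosome 2 between positions 86294686 and 86296173, with 124 CpG sites, the most of the 9. Its level was 44.5% (42.2 to 46.8) of 1799 calls in Bone_1 and 29.9% (26.8 to 33.3) of 758 calls in Bone_2, a mean of 37.2% ± 10.3 (SD, n = 2). The promoter was made of a section low in methylation and a methylated one. The mean level of BOLL moved with the window and the sites used. It was 51.4% within 500 bp to either side of the start and 17.2% from 250 bp upstream to 50 bp downstream. With sites at least 300 bp apart it was 57.6%, and as an unweighted mean over sites with at least 5 calls it was 24.9%. In the 1000 bp upstream of the start the level was 6.32% (4.91 to 8.10) in Bone_1 and 12.3% (9.82 to 15.2) in Bone_2. With the same weight per site the difference in this section was 2.06 points (-0.612 to 4.74), so a higher level in Bone_2 was not shown there. In the 500 bp downstream it was 82.8% (80.2 to 85.2) and 80.6% (74.5 to 85.5). The change fell close to the start, from 16.8% and 5.06% in the 250 bp before it to 77.6% and 73.5% in the 250 bp after it.

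The summed difference of -14.5 points at BOLL (-18.4 to -10.5, adjusted p = 3.32e-11, Fisher's exact test) was not present in either section. Within 500 bp to either side of the start it was -22.6 points. The upstream section held 50.1% of the promoter's calls in Bone_1 and 74.1% in Bone_2. With the same weight per site the difference turned to 0.63 points (-2.01 to 3.27), and of the 85 sites with 5 calls or more in both samples 18 were lower and 32 higher in Bone_2. At this promoter a lower level in Bone_2 was thus found in the summed calls and not site by site. The methylation in the name of the group did not hold for the CpG-rich 1000 bp before the start of this gene.

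**Figure D3:**
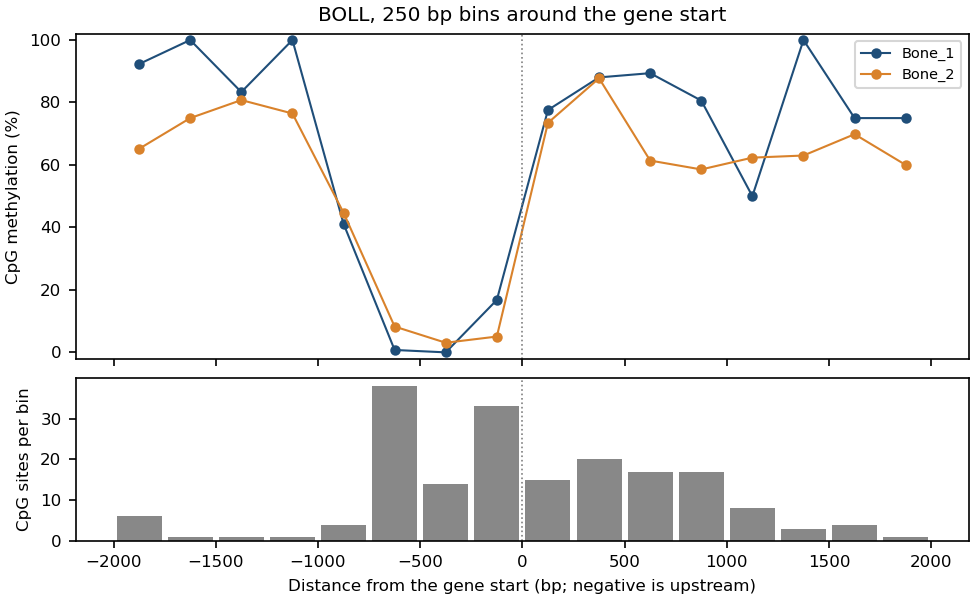
CpG methylation in percent of Bone_1 and Bone_2 (upper panel) and number of CpG sites (lower panel) in 250 bp bins around the start of BOLL. Methylation is low in the kilobase before the start in both samples (6.32% and 12.3%) and high in the 500 bp after it (82.8% and 80.6%).

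DDX4, the germ cell RNA helicase also known as VASA, and the genes MAEL and TDRD1 act in or beside the pathway of piRNAs, the small RNAs that hold transposons in check in germ cells. The promoter of DDX4 lay on chromosome 20 between 23424240 and 23425301. It was methylated at 90.9% (89.1 to 92.5) of 1070 calls in Bone_1 and 69.4% (65.8 to 72.8) of 673 calls in Bone_2, a mean of 80.2% ± 15.2 (SD, n = 2). The difference of -21.5 points (-25.5 to -17.7) was among the largest of these genes (adjusted p = 1.7e-28, Fisher's exact test), and 44 of its 50 sites with at least 5 calls were lower in Bone_2. It was -18.8 points with the same weight per site.

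TDRD1, a Tudor domain protein that binds PIWI proteins, had its promoter on chromosome 26 between 34640845 and 34642065. The level was 87.7% (86.1 to 89.2) of 1671 calls in Bone_1 and 65.7% (61.3 to 69.8) of 472 calls in Bone_2, a mean of 76.7% ± 15.6 (SD, n = 2). This difference, -22.1 points (-26.7 to -17.6), was the largest of the 9 by summed calls (adjusted p = 2.34e-24, Fisher's exact test) and was -20.1 points with the same weight per site.

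MAEL, which takes part in transposon silencing, had its promoter on chromosome 3 between 1885849 and 1887231. It was methylated at 91.2% (89.5 to 92.5) of 1380 calls in Bone_1 and 84.4% (81.2 to 87.2) of 559 calls in Bone_2, the highest level of the 9 in Bone_2. The mean was 87.8% ± 4.75 (SD, n = 2). Its difference of -6.72 points (-10.2 to -3.52) was called (adjusted p = 9.41e-05, Fisher's exact test) and was smaller than that of DDX4 or TDRD1. In the narrower window from 250 bp upstream to 50 bp downstream of the start the direction turned, to 1.96 points.

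HORMAD1, SYCP3 and SYCP1 build the chromosome axis and the synaptonemal complex that joins homologous chromosomes in meiosis. The promoter of HORMAD1, an axis protein, lay on chromosome 3 between 20015345 and 20016807. It was methylated at 91.5% (89.4 to 93.3) of 802 calls in Bone_1 and 78.2% (75.0 to 81.1) of 688 calls in Bone_2, a mean of 84.9% ± 9.42 (SD, n = 2), and the difference was -13.3 points (-17.0 to -9.71, adjusted p = 3.39e-12, Fisher's exact test). From 250 bp upstream to 50 bp downstream of the start it was -7.27 points. SYCP1, the transverse filament of the complex, had its promoter on chromosome 3 between 28478595 and 28479921, with the long non-coding RNA gene LOC112445870 within 5 kb of the start. Its level was 84.2% (82.1 to 86.0) of 1407 calls in Bone_1 and 68.9% (65.3 to 72.2) of 691 calls in Bone_2, a mean of 76.5% ± 10.8 (SD, n = 2). The difference of -15.3 points (-19.3 to -11.4) was called as well (adjusted p = 2.68e-14, Fisher's exact test).

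SYCP3, of the lateral elements of the complex, was the placed promoter at which the summed calls showed no called difference. Its promoter, on chromosome 5 between 65547716 and 65549013, was methylated at 76.3% (73.4 to 79.1) of 854 calls in Bone_1 and 73.0% (69.3 to 76.4) of 592 calls in Bone_2, a mean of 74.7% ± 2.39 (SD, n = 2). The difference was -3.37 points (-7.98 to 1.15, adjusted p = 0.230, Fisher's exact test), and the samples overlapped. With the same weight per site it was -10.4 points (-15.0 to -5.75), and 30 of 41 sites with at least 5 calls were lower in Bone_2 against 9 higher. With sites at least 300 bp apart it was 0.21 points. The size of the difference at SYCP3 thus depended on how its sites were weighted and chosen.

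BRDT, a bromodomain protein of spermatocytes and spermatids that binds acetylated histones, had its promoter on chromosome 3 between 51442568 and 51443803. It had the highest level of the 9 in Bone_1, 94.4% (91.9 to 96.2) of 448 calls, and reached 75.9% (71.6 to 79.6) of 435 calls in Bone_2, a mean of 85.1% ± 13.1 (SD, n = 2). The difference of -18.6 points (-23.15 to -14.01) was called (adjusted p = 2.01e-14, Fisher's exact test). With the same weight per site it was -16.4 points (-21.2 to -11.7). The total of calls was nearly equal in the 2 samples, although single sites were read to different depth, and 29 of its 32 sites with at least 5 calls were lower in Bone_2.

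By mean level the promoters ran in the order MAEL, DAZL, BRDT, HORMAD1, DDX4, TDRD1, SYCP1, SYCP3 and BOLL. Among the first 8, neighbours in this order differed by less than the SD between the samples. Genes farther apart in the order could differ in both samples, as MAEL (91.2% and 84.4%) was above SYCP3 (76.3% and 73.0%) in each with intervals that did not overlap. The step from SYCP3 to BOLL was larger than the SD of either.

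**Figure D4:**
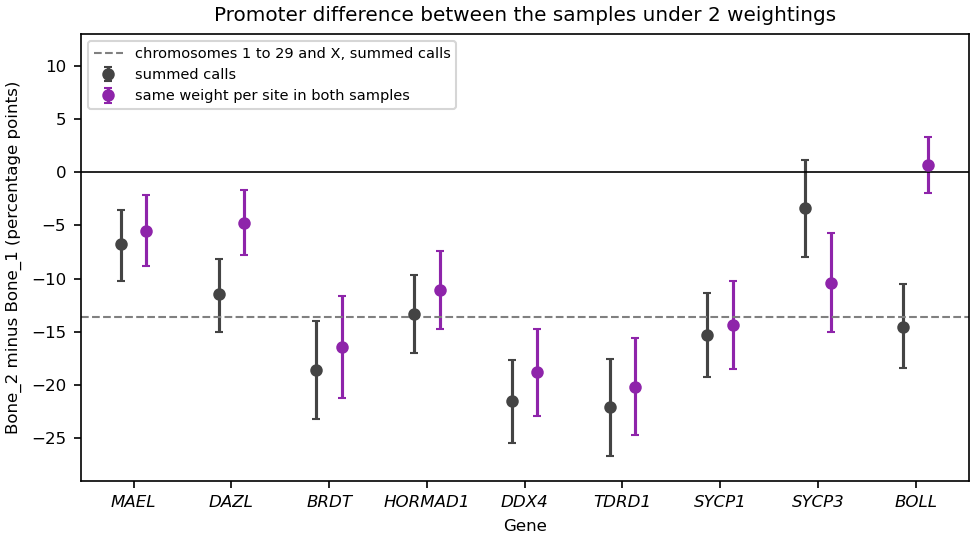
Difference in promoter methylation, Bone_2 minus Bone_1 in percentage points (vertical axis), for the 9 germ cell genes by summed calls and with the same weight per site in both samples, with 95% intervals for counting error. The dashed line is the difference of chromosomes 1 to 29 and X (-13.6 points), and the 2 weightings part most at DAZL, SYCP3 and BOLL.

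The promoters were also set against the genome-wide odds ratio of 1.84 between the samples, which takes the starting level into account. By summed calls, DAZL, DDX4, TDRD1, HORMAD1, BRDT and SYCP1 were farther apart than the genome, 6 of the 9, where 7.11% of all promoters and 51.6% of those with a mean of at least 50% were. The odds ratios of these 6 ran from 2.40 at SYCP1 (adjusted p = 0.0240, exact test) to 5.38 at BRDT (adjusted p = 2.29e-06, exact test). SYCP3, at 1.20, was less far apart than the genome (adjusted p = 0.000907, exact test), as were, or in the opposite direction, 61.1% of all promoters and 7.74% of those with a mean of at least 50%. MAEL (1.90) and BOLL (1.87) were called neither way. With the same weight per site the odds ratio at DAZL was 1.63, below that of the genome by summed calls, and at SYCP3 it was 1.75, so both calls rested on the summed calls. At the other 5 called farther apart it was 2.27 to 4.58 (no test). With sites at least 300 bp apart 0 of the 9 were called farther apart, and DAZL was the 1 gene at an unadjusted p under 0.05. In those calls of DAZL 1 site held 19 of the 41 in Bone_2. A difference greater than that of the genome was thus called from the full set of calls, and not from the smaller set of calls at sites 300 bp apart. The share of all promoters called farther apart in that smaller set is not given here, so the loss was not shown to be particular to these genes.

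STK31, a Tudor domain kinase of germ cells on chromosome 4, had no end that met the rule for a start. Its lower end, with 3 CpG sites, was at 47.8% of 23 calls in Bone_1 and 48.4% of 62 calls in Bone_2. Its upper end, with 11 sites, was at 61.2% (50.5 to 70.8) of 85 calls and 37.8% (31.2 to 45.0) of 185 calls. A looser rule, chosen after seeing the data (1.5 times as many sites and at least 10), took the upper end as the start and called it lower in Bone_2, by a difference of -23.3 points (adjusted p = 0.000879, Fisher's exact test), where 28.3% of all promoters placed by that rule were called lower. The gene overlaps FAM221A by 8.44 kb at the upper end. The 1 kb inside the gene with at least 20 CpG sites lay 13 to 14 kb in from that end and held 48 sites. There the level was 81.1% (78.8 to 83.2) of 1190 calls in Bone_1 and 72.4% (66.9 to 77.3) of 279 calls in Bone_2, a stretch chosen after its values were seen and not shown to be a start.

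The bodies of the genes, from 500 bp after the start to the other end, were methylated in all 10, where STK31 was taken whole. The median was 81.6% in Bone_1 and 61.7% in Bone_2, beside promoter medians of 90.9% and 73.0%. All 9 bodies with a placed start were called lower in Bone_2 (Fisher's exact test with adjustment over all bodies), as were 85.7% of all bodies tested, and 7.74% of all bodies were called higher. The count was 8 with sites at least 300 bp apart, and also 8 without the 5 kb next to the start. The shares of all bodies called lower under these settings are not given here. Neither count was thus shown to be particular to the germ cell genes. By summed calls the difference ran from -25.3 points at DAZL (87.1% and 61.9%) to -10.6 points at SYCP3 (81.7% and 71.1%). SYCP3 had the smallest difference both in its promoter by summed calls and in its body. Body differences with the same weight per site are not given here. The body of BOLL, at 79.9% and 61.0%, differed by -18.9 points and was like those of the other genes. The median difference of the 10 bodies was -19.8 points.

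In 1 kb windows out to 5 kb from the starts, most of the sequence beside the promoters was methylated. Leaving out the 2 windows next to the start, the median level of a gene's windows was 78.0% to 91.7% in Bone_1 and 54.3% to 71.03% in Bone_2. Lower windows, named after their values were seen, lay 2 to 3 kb before the start of SYCP1 (54.9% of 51 calls and 26.9% of 182 calls) and of DDX4 (64.3% of 28 calls and 28.1% of 89 calls). Others lay 3 to 4 kb after the start of DAZL (60.6% and 36.4%) and 1 to 2 kb after that of TDRD1 (53.0% and 45.0%). Of these outer windows of the 9 genes, 62 had 10 calls or more in both samples, and 60 of them were lower in Bone_2, 36 with intervals that did not overlap. The median difference of the 62 was -20.6 points. Bone_2 was also lower over the genome (-13.6 points), and 85.7% of all gene bodies were called lower. Shares over the same windows of all genes are not given here, so these counts were not shown to be particular to the germ cell genes. The 2 windows that were not lower both lay at BOLL. At MAEL the kilobase before the start differed by -3.85 points against a median of -20.9 in its outer windows. At SYCP3 these values were -6.53 and -14.4, and at BOLL they were 5.96 and -21.2. All of these are by summed calls, and with the same weight per site the kilobase before the start of BOLL differed by 2.06 points (-0.612 to 4.74). At DDX4 and TDRD1 the kilobase before the start differed about as much as the genes' surroundings or more, by -27.6 and -27.9 points beside medians of -27.9 and -18.8.

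**Figure D5:**
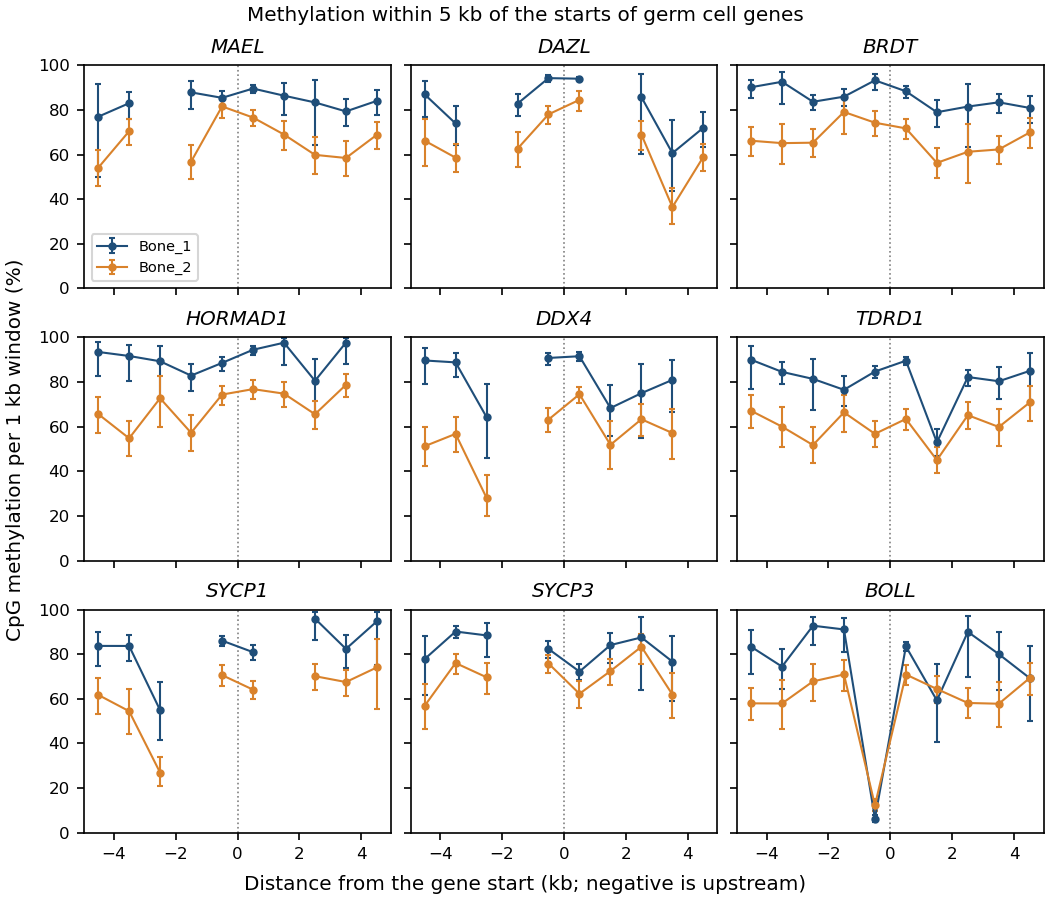
CpG methylation in percent per 1 kb window (vertical axes) within 5 kb of the start of each germ cell gene (horizontal axes, distance in kb), for Bone_1 and Bone_2 with 95% Wilson intervals. Bone_2 lies below Bone_1 in 60 of the 62 outer windows, and the kilobase before the start of BOLL is low in both samples (6.32% and 12.3%). The share over the same windows of all genes is not given here.

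Other germ cell genes were read the same way from lists, with the 2 highest and 2 lowest promoters of each named, and they were methylated less uniformly. The members and these lists were chosen with earlier results of these data known, so the contrast cannot be told apart from the choice of genes. Starts in the lists were placed by CpG counts alone, without a check of neighbouring genes. A low window was thus not shown to be the promoter of the named gene. The counts of calls below stand beside 19.9% of all promoters called lower and 36.6% called higher, and 91.1% called lower among those with a mean of at least 50%. Over the 6 lists of germ cell genes 25 promoters were called lower in Bone_2, and all 25 were lower with the same weight per site. Of 18 called higher, 13 were lower in Bone_2 with the same weight per site, so the higher calls depended on the weighting. Of 15 placed genes of the PIWI and piRNA pathway, 7 had a mean of at least 50% and 7 a mean under 20%, and 8 were called lower and 2 higher in Bone_2. PLD6 (93.0% and 71.4%) and PIWIL2 (90.1% and 70.0%) were near MAEL in Bone_1 (91.2%). In Bone_2 both lay between MAEL (84.4%) and TDRD1 (65.7%). TDRD7 (2.00% and 6.30%) and PIWIL4 (7.55% and 14.05%) were the lowest. Of 11 placed regulators of germ cell fate and RNA, 6 had a mean of at least 50%, and 7 were called lower and 2 higher. DND1 (88.7% and 77.0%) and SOHLH2 (92.1% and 68.9%) were at the top, and YTHDC2 (1.96% and 10.1%) and DMRT1 (9.94% and 17.3%) at the bottom.

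Among the other genes of the synaptonemal complex and meiotic cohesin, 1 of 6 placed promoters had a mean of at least 50%, SMC1B (78.1% and 52.7%), followed by HORMAD2 (44.6% and 35.4%). The lowest of the 6 were SYCE2 (3.04% and 12.1%) and STAG3 (15.9% and 24.6%). In this list 3 were called lower and 2 higher in Bone_2. SMC1B was near SYCP3 (76.3%) in Bone_1 and below SYCP1 (84.2%) and HORMAD1 (91.5%). None of the 6 reached the level of SYCP1, SYCP3 or HORMAD1 in Bone_2. Of 11 placed genes of meiotic recombination, 5 had a mean of at least 50%, with SPATA22 (88.8% and 73.3%) and SPO11 (85.3% and 74.4%) highest and MEIOB (2.88% and 11.0%) and PSMC3IP (5.70% and 8.76%) lowest. There 3 were called lower and 7 higher by summed calls, and 5 of the 7 (MEI4, TEX15, MEIOB, MND1 and PSMC3IP) were lower with the same weight per site, with differences of -5.17 to -1.07 points.

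Of 6 placed genes of haploid sperm, 4 had a mean of at least 50%, and 3 were called lower and 2 higher. PGK2 (93.1% and 65.8%) and SPACA3 (82.8% and 55.8%) were highest, and GAPDHS (1.11% and 3.64%) and IZUMO1 (17.7% and 14.1%) lowest. Of 4 placed oocyte genes, 1 was called lower and 3 higher. NOBOX, a transcription factor of oocytes, was at 79.6% and 68.5%, FIGLA at 30.7% and 50.5%, OOEP at 18.7% and 24.1% and OOSP2 at 1.57% and 11.3%. All 3 called higher turned with the same weight per site, FIGLA to -11.2, OOEP to -8.41 and OOSP2 to -2.44 points.

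Ubiquitously expressed relatives of BRDT and DDX4 had unmethylated promoters. BRD2 was at 0.136% and 0.883%, BRD3 at 0.494% and 0.348% and DDX3X at 1.02% and 3.32% in Bone_1 and Bone_2. The highest of these values was thus far below the lowest of BRDT and DDX4. Of 11 placed housekeeping genes 8 had a mean under 20%, with GAPDH (0.720% and 0.575%) among the lowest and B2M (75.1% and 38.0%, in 346 and 158 calls) and PGK1 (29.9% and 27.0%) highest. PGK1 and HPRT1 (32.3% and 18.6%) lie on chromosome X, and the samples were labelled female. Of the 11, 3 were called lower and 2 higher. Markers of the labelled tissue could be placed in few cases. SP7, a transcription factor of bone-forming cells, was at 2.04% and 10.2%, and PTPRC, of blood cells, at 34.3% and 42.1%, 1 of 6 and 1 of 4 listed markers, and with the same weight per site the differences were -1.72 and 1.32 points. The starts of SP7 and PTPRC were also placed by CpG counts alone, without a check of neighbouring genes. The part of cell makeup in the differences was not tested.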

How the data were processed

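Per the labels, DNA of 2 bone samples was sequenced by WGBS. The authors trimmed and mapped the reads with Bismark and deposited counts of calls, methylated or unmethylated, per CpG cytosine and strand. The submitters' processing notes name FastQC 0.11.5, Trim Galore 0.4.5, Bowtie2, Bismark 0.19.0 and ARS-UCD1.2, whereas the study's methods name another build.

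Strands were merged, and a level is the methylated calls over all calls. Promoters ran from 1000 bp upstream to 500 bp downstream of the start and needed at least 20 calls in each sample. The start rule used CpG counts alone but was set with member methylation in view, and the members, lists and added alternatives were chosen with earlier results of these data known. Intervals are Wilson intervals, or Newcombe and Sato intervals for differences. Calls were compared by two-sided Fisher's exact tests, against an odds ratio of 1 and against that of the genome, with Benjamini-Hochberg adjustment over all promoters or bodies (threshold 0.05). Named genes are the 10 members, ubiquitously expressed relatives (BRD2, BRD3 and DDX3X), and the 2 highest and 2 lowest promoters of every other list, and 2 genes this rule names are not reported here. The tests were tested on simulated data at 12973 promoters. The lowered promoters were drawn only from those with a high level in the pooled calls. Against an odds ratio of 1, 95.5% of those made 20 points lower were recovered and 100% of those made 30 points lower. In these runs 6 and 10 unchanged promoters were called. Against the genome odds ratio, the 20 or 30 points came on top of the genome-wide shift. There 94% and 99.5% were recovered, with 7 and 4 unchanged promoters called. The simulated calls were independent, with 1 rate per promoter and sample, and held neither shared reads nor unequal depth across sites. How often the tests err on calls with these features was thus not examined. Promoter sequences, motifs and other transcript starts were planned and not analysed here. The software was scipy 1.17.1, numpy 2.4.6, pandas 2.3.3 and pyarrow 21.0.0 under Python 3.11.15, with matplotlib 3.10.9 for plots.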

Additional observations from a re-analysis of the deposited data

How the results depend on the processing

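No paired analysis was possible because there is 1 group only. The median promoter level was 73.0% to 90.9%, the median gene body level of the 9 genes with a placed start, without STK31, 61.9% to 81.7% and the genome level 58.7% to 72.3% when either sample was left out. The count of all promoters lower in Bone_2, 2588, was 855 in the window from 250 bp upstream to 50 bp downstream, 675 with sites at least 300 bp apart, 922 against the genome odds ratio, 1631 where 10 points were also required, and 4606 with starts placed by 1.5 times as many and at least 10 CpG sites, chosen after seeing the data, which also placed and called STK31. With sites at least 300 bp apart, which leaves fewer calls, the germ cell genes called lower went from 8 to 2, with differences of -18.6 to -9.87 points where the call was lost, and those farther apart than the genome from 6 to 0. For the latter, the share of all promoters with sites 300 bp apart is not given here. The difference turned to 1.96 points at MAEL in the narrow window, to 0.21 points at SYCP3 with sites 300 bp apart, and at BOLL to 1.94 points as an unweighted mean over sites and to 0.63 points with the same weight per site, an alternative chosen after seeing the data. For the narrow window and SYCP3 the cause was not tested. Calls per site at the promoters, 5.24 to 14.6 in Bone_2, limit precision. Other transcript starts were not run.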

Other observations

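Over all 12973 promoters, giving each CpG site the same weight in both samples moved the median difference from 0.52 to -1.27 percentage points. Of the 4748 promoters called higher in Bone_2 by summed calls, 3467 (73.0%) were lower in Bone_2 with the same weight per site. Of the 2588 called lower, 2556 (98.8%) stayed lower. Among the other germ cell genes, MEIOC went from 2.68 to -20.5 points, MEI1 from 1.55 to -12.2 and TEX15 from 19.5 to -3.49. These genes were chosen after their values were seen. The window at the other end of HORMAD1 was at 43.2% of 44 calls in Bone_1 and 30.5% of 325 calls in Bone_2.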
